A study of Arabidopsis thaliana with 12 samples.

Results

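The introns described here are those that the deposited intron retention tables list with a higher intron/exon read ratio in heated than in unheated Arabidopsis thaliana seeds, in the atcyp18-1 mutant and in the wild type (WT) alike. An intron was a member when the same chromosome, start and end stood in both heat tables and the mean ratio of the 3 heat libraries was above that of the 3 normal libraries in each. This held for 1087 introns, out of 1203 listed in both heat tables and 3974 in any of the 4 tables of intron retention. Of the other introns in both tables, 115 had a lower ratio in heat in both genotypes and 1 moved in opposite directions. The members lay in 530 genes, called host genes below. The members were chosen by the measured heat and normal ratios, so the heat values are given as a description, with no test.

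The 12 libraries were of polyadenylated RNA from germinating seeds 1 day after imbibition, after stratification at 4 °C for 2 days and plating on medium. The 4 groups, with 3 libraries each, were atcyp18-1 seeds heated to 45 °C for 2 h (atcyp18-1 heat), atcyp18-1 seeds without heat (atcyp18-1 normal), WT seeds with the same heat (WT heat) and WT seeds without it (WT normal). The labels name no other allele, transgene or line, and atcyp18-1 stands for a single mutant line of CYP18-1 (AT1G01940), a cyclophilin, which is an enzyme that isomerises proline bonds. The series compared splicing in heat between this mutant and the WT. Whether replicates are separate plants or seed lots is not labelled, so the tests below judge differences against a spread that may be technical only.

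Introns are removed from a transcript by the spliceosome, which recognises a 5′ splice site that usually begins with GT in the DNA and a 3′ splice site that usually ends with AG. In intron retention the intron stays in polyadenylated RNA, and in plants this is the most common form of alternative splicing. A retained intron inside a coding sequence usually brings a stop codon into the reading frame. Heat is known to lower splicing efficiency in several organisms, and transcripts with introns can be kept in the nucleus until they are spliced.

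Gene-level totals ran from 7468922 to 10506481 reads per library. CYP18-1 was read at 3.37 ± 1.04 CPM in atcyp18-1 heat and 1.93 ± 0.414 CPM in atcyp18-1 normal, against 25.6 ± 0.547 CPM in WT heat and 22.0 ± 0.995 CPM in WT normal (SD, n = 3 each; CPM, read counts scaled to a common library size). Summed levels of 4 storage genes of the embryo (CRA1, SESA1, SESA3 and OLEO1) lay between 3886 and 5963 CPM in atcyp18-1 heat and 4430 and 5284 CPM in atcyp18-1 normal, against 1637 to 3034 CPM in WT heat and 1305 to 2199 CPM in WT normal. The 5 endosperm and seed coat genes measured (EXPA2, MAN7, XTH19, BAN and TT10) together gave 405 to 493 CPM in atcyp18-1 heat and 588 to 678 CPM in atcyp18-1 normal, with 454 to 544 CPM in WT heat and 608 to 679 CPM in WT normal. These sums hide differences between genes. Without heat XTH19 averaged 81.5 CPM in atcyp18-1 and 145 CPM in WT, while EXPA2 had 464 and 420 CPM and MAN7 90.8 and 76.7 CPM. In heat XTH19 had 64.3 and 119 CPM, EXPA2 304 and 320 CPM and MAN7 74.8 and 55.4 CPM, in the same order. The root meristem genes PLT1 and SCR summed to 7.39 to 10.6 CPM in atcyp18-1 heat and 18.4 to 19.2 CPM in atcyp18-1 normal, with 7.82 to 9.86 CPM in WT heat and 17.5 to 18.3 CPM in WT normal. SCR averaged 4.01 CPM in heat and 12.9 CPM without heat in atcyp18-1, and 4.70 and 11.6 CPM in WT. PLT1 had 4.93 and 5.96 CPM in atcyp18-1 and 3.92 and 6.34 CPM in WT. BAN and TT10 lay under 1 CPM in every library, with deposited counts of 1 to 6. Since these counts appear to be the reads plus 1, a count of 1, seen for BAN in 7 libraries and for TT10 in 6, may stand for 0 reads. Their part in the results was not tested. In whole seeds, fewer cells of a type and less RNA per cell cannot be told apart.

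The sequences of 6 members show what the retained stretches look like, and each is taken up again below. AT5G12110 intron 3 (chr5:3914935-3915133, plus strand) shows an ordinary intron among those with a high ratio in heat, and HSP21 intron 1 (chr4:13819467-13819660, minus strand) the only intron of a plastid small heat shock protein gene. ATERDJ3A intron 6 (chr3:2739224-2739457, plus strand), AT5G06750 intron 2 (chr5:2086961-2087192, minus strand) and AT1G54870 intron 3 (chr1:20460278-20460409, plus strand) are introns whose ratio differed between the genotypes. HD2C intron 3 (chr5:982684-982826, plus strand) has the rare AT and AC ends. All are written 5′ to 3′ on the transcribed strand from the TAIR10.1 genome of RefSeq, with 15 exon bases on each side included in the coordinates. Capitals mark the first and last 2 bases of the intron and the first stop codon in the reading frame that enters from the upstream exon.
AT5G12110 intron 3: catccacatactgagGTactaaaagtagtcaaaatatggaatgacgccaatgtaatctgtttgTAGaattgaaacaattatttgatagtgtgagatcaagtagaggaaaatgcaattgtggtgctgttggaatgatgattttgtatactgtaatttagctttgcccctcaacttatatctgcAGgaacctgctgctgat
HSP21 intron 1: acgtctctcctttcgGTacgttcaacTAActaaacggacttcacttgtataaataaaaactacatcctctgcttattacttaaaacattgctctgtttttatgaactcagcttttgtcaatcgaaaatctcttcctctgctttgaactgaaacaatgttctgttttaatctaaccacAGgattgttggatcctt
ATERDJ3A intron 6: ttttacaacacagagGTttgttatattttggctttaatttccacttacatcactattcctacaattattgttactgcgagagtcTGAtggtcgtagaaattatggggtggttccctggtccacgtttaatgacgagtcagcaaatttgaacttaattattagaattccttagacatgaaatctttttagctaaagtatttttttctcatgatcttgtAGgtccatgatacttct
AT5G06750 intron 2: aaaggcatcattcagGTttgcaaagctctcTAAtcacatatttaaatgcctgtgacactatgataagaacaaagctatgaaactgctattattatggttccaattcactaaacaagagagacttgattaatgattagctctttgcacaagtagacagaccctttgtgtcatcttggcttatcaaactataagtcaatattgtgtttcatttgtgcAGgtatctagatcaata
AT1G54870 intron 3: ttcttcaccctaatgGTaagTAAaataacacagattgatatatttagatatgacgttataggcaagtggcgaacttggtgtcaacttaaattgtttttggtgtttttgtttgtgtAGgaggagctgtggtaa
HD2C intron 3: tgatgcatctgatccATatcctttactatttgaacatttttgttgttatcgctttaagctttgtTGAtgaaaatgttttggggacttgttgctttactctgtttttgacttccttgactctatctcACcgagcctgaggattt
In these 6 introns the first stop codon begins at intron base 49, 12, 70, 16, 6 and 50, in the order printed. Introns are numbered from the 5′ end of the transcript. The deposited tables number those of minus-strand genes in genomic order, which runs the other way.

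The ratio divides the reads on an intron by the mean reads of its 2 adjacent exons in the same library, and is not scaled for length. The median ratio of the 1087 introns was 0.333, 0.326 and 0.341 in the atcyp18-1 heat libraries, against 0.0874, 0.0833 and 0.0900 in the atcyp18-1 normal libraries. In WT the medians were 0.295, 0.275 and 0.323 in heat, against 0.0628, 0.0660 and 0.0638 without heat. The libraries of a group lay close together, and every heat library was above every normal library in its median. Each of the 1087 introns also had its 3 heat libraries above its 3 normal libraries in both genotypes. In the deposited tables this separation with heat above held for 82.2% of the 2458 introns in atcyp18-1 and 92.8% of the 2488 in WT, so all introns listed there with a higher mean were also separated. The 1087 introns were 53.8% of the 2021 introns with a higher mean in heat in atcyp18-1 and 47.1% of the 2308 in WT.

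The ratio in heat was a median of 3.39 times that without heat in atcyp18-1 (quartiles 2.48 and 5.44, range 1.71 to 40.9) and 3.84 times in WT (quartiles 2.80 and 6.07, range 1.70 to 45.7). The 115 introns with a lower ratio in heat sat on another scale, with library medians of 0.00414 to 0.00590 in atcyp18-1 heat and 0.0170 to 0.0181 in atcyp18-1 normal, and 0.00553 to 0.00649 in WT heat and 0.0150 to 0.0159 in WT normal. To compare introns with each other, intron reads per base were set against exon reads per base, here called length-adjusted retention. This value uses annotated exon lengths and can exceed 100%, so it is not the share of transcripts that keep the intron. The median of this value was 35.5% in atcyp18-1 heat (quartiles 19.2 and 62.9%) and 9.16% in atcyp18-1 normal (5.22 and 15.4%). WT had 30.2% in heat (16.2 and 57.1%) and 6.90% without heat (3.79 and 12.1%). In heat 118 introns in atcyp18-1 and 112 in WT were read more densely than their flanking exons, above 100%, while 1 intron was without heat in each genotype.

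**Figure D1:**
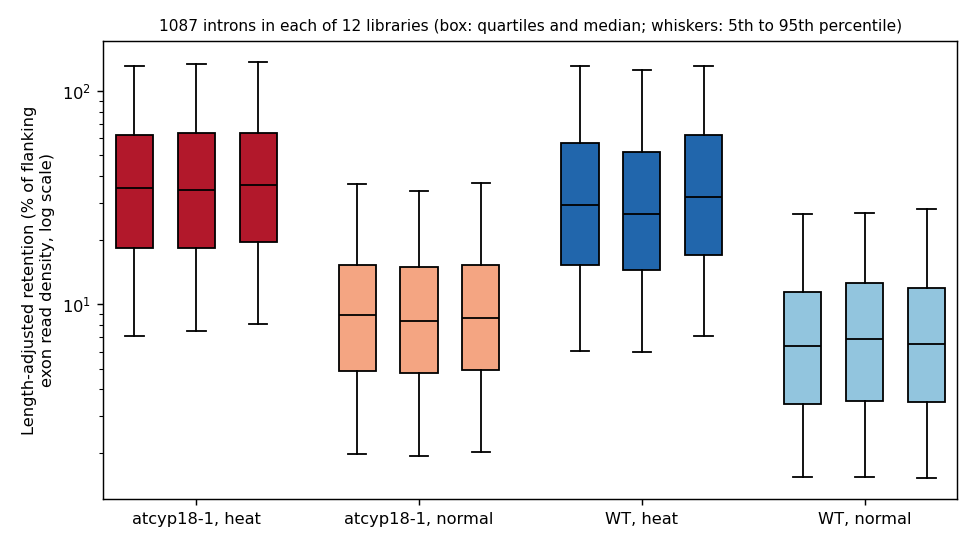
Length-adjusted retention of the 1087 introns in each of the 12 libraries, in percent of the read density of the flanking exons on a log axis, with boxes for quartiles and median and whiskers for the 5th to 95th percentile. The medians of the heat libraries lie between 26.6 and 36.3% and those of the normal libraries between 6.40 and 8.93%.

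Intron reads were higher in heat for nearly all members, while exon reads went both ways. The rule selected a higher ratio of intron to exon reads, so the counts of higher intron reads are a description only. Scaled to the library's gene counts, intron reads in heat against normal had a median log2 change of 1.69 in atcyp18-1, where 1077 introns were higher, and 1.66 in WT, where 1080 were higher. For 1074 introns they were higher in both. Reads of the adjacent exons changed by a median of −0.06 in atcyp18-1 and −0.20 in WT, and they were higher in heat in both genotypes for 438 introns and lower in both for 555. Their quartiles were −0.55 and 0.92 in atcyp18-1 and −0.65 and 0.59 in WT, with extremes of −2.05 and 7.23 in atcyp18-1 and −1.94 and 5.47 in WT. The depth behind single introns was low without heat. Median reads per intron were 28 to 41 in the atcyp18-1 heat libraries and 10 to 12 in the atcyp18-1 normal libraries, and 27 to 42 in WT heat and 8 to 10 in WT normal. In each normal library the lowest value was 1 read, whereas the heat libraries went down to 7 reads in atcyp18-1 and 3 in WT. No deposited intron count was 0, and no source used here says whether 1 was added to each, as the gene counts appear to have.

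Splice sites, length and base content of the members were set beside those of other introns. Of the 1087, 99.1% began with GT and ended with AG, 8 began with GC, and 2 had AT and AC ends, against 98.9% with GT and AG among the 6615 annotated introns of the same host genes and 98.3% among all 136308 annotated introns. Their median length was 111 bases (quartiles 87 and 270, range 63 to 1562), against 102 bases both in the host genes and in the whole annotation. The 115 introns that were lower in heat had a median of 136 bases. GC content was a median of 33.6% in the members, against 33.3% in the host genes, 32.8% in all introns and 32.6% in the introns lower in heat. The base before the intron was G in 77.5% of members, against 79.8% in the host genes and 76.2% in all introns, and the fifth intron base was G in 52.6%, 52.3% and 49.5%. Only 48 members, or 4.42%, are retained in some annotated transcript, against 3.99% in the host genes and 7.65% of all introns.

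The place in the gene differed, as a description, from that of the introns lower in heat. Internal introns made up 75.9% of the members, first introns 12.8%, last introns 9.11% and sole introns 2.21%. Among the introns lower in heat the shares were 33.9%, 21.7%, 28.7% and 15.7%, and among all introns of the host genes 81.5%, 9.52%, 8.53% and 0.469%. Inside the coding sequence lay 1040 members, or 95.7%, with 40 in the 5′ UTR and 7 in the 3′ UTR. Of the 1040, 366 had a length divisible by 3, which is 35.2%, against 33.7% of the coding introns of the host genes. An in-frame stop codon stood within 953 of them, or 91.6%, against 89.1% in the host genes, and it began at a median of intron base 33. For 21 coding introns, 2.02%, the length was divisible by 3 and no stop was met, so that retention would only insert residues. The corresponding share was 3.06% of the host genes' coding introns. The members lay on chromosomes 1 to 5 in numbers of 291, 162, 210, 163 and 261. An exon of another annotated gene overlapped 8 members, 6 of them on the opposite strand, and without strand information those reads cannot be told apart from retention.

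A small class of introns is removed by the minor spliceosome, which contains U11 and U12 RNA and recognises a longer, stricter 5′ splice site. The first 8 intron bases, read on the transcribed strand only, were GTATCCTT or ATATCCTT in 6 members, or 0.552%, against 0.287% of the host genes' introns, 0.206% of all annotated introns and 0 of the 115 introns lower in heat. A match describes these letters only. The 6 introns are shown by their first 15 bases, with the 2 outermost in capitals, because this start is what they share.
AT3G24100 intron 1: ATatccttctctact
HD2C intron 3: ATatcctttactatt
EMB2753 intron 14: GTatccttgtttatc
FKBP53 intron 3: GTatcctttcattgt
DER1 intron 6: GTatcctttattcaa
PRH75 intron 6: GTatcctttagtact
These 6 were chosen after the values had been seen. HD2C intron 3 had ratios of 0.274, 0.182 and 0.27 in the heated atcyp18-1 libraries, against 0.0641, 0.0802 and 0.0897 in the unheated ones. In WT, HD2C intron 3 had 0.215, 0.177 and 0.272 in heat, against 0.0726, 0.0748 and 0.0508 without heat. HD2C encodes a plant-specific histone deacetylase, and the heated libraries of both genotypes overlapped. For AT3G24100 intron 1 the ratio was 0.648, 0.807 and 0.971 in atcyp18-1 heat and 0.151, 0.117 and 0.121 in atcyp18-1 normal. WT AT3G24100 intron 1 had 0.527, 0.561 and 0.663 in heat and 0.12, 0.176 and 0.0989 at the normal temperature. AT3G24100 encodes a small protein of the SERF family. The ratio in heat over normal of the 6 ranged from 1.8 to 6.25 in atcyp18-1 and from 2.36 to 8.04 in WT.

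The introns with the greatest absolute rise of the ratio were mostly long, and the ratio is not scaled for length. The 10 with the greatest rise, averaged over both genotypes and among host genes with at least 5 CPM in every group, were 251 to 1122 bases long. AT3G12050 intron 2 had ratios of 2.84, 2.8 and 3.5 in the heated atcyp18-1 libraries, against 0.762, 0.722 and 0.286 in the unheated ones. In WT, AT3G12050 intron 2 had 2.53, 2.29 and 2.92 in heat, against 0.698, 0.552 and 0.381 without heat. AT3G12050 encodes a protein with an Aha1 domain; in yeast and human cells Aha1 stimulates the ATPase of HSP90. Its heat libraries held 127 to 422 intron reads and its normal libraries 5 to 16, so the heat values are the firmer ones. For DER1 intron 1 the ratio was 2.18, 1.63 and 2.09 in atcyp18-1 heat and 0.069, 0.213 and 0.351 in atcyp18-1 normal. WT DER1 intron 1 had 1.39, 0.977 and 1.69 in heat and 0.0862, 0.162 and 0.162 at the normal temperature. DER1 encodes DERLIN-1, a protein of the endoplasmic reticulum; Derlins in yeast and human cells serve the export of misfolded proteins from that compartment. Groups of heat and normal libraries did not overlap.

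SGT1A intron 1 gave 1.71, 1.43 and 1.96 in heated atcyp18-1 seeds and 0.294, 0.387 and 0.193 in unheated ones. Its WT ratios (SGT1A) were 1.68, 1.3 and 1.72 in heat and 0.111, 0.174 and 0.279 without heat. SGT1A is a co-chaperone of HSP90 that acts in immune and heat responses. AT1G30070 intron 1 had ratios of 1.68, 1.96 and 1.74 in the heated atcyp18-1 libraries, against 0.208, 0.206 and 0.149 in the unheated ones. In WT, AT1G30070 intron 1 had 1.38, 1.2 and 1.49 in heat, against 0.0352, 0.00877 and 0.0474 without heat. AT1G30070 encodes a protein with the SGS domain that is also found in SGT1. Its unheated WT values rested on 1 to 6 reads, against 10 to 16 reads in unheated atcyp18-1 seeds. For AT3G07090 intron 1 the ratio was 1.62, 1.79 and 1.84 in atcyp18-1 heat and 0.222, 0.216 and 0.11 in atcyp18-1 normal. WT AT3G07090 intron 1 had 1.36, 1.19 and 1.52 in heat and 0.13, 0.0714 and 0.0593 at the normal temperature. This intron lies in the 5′ UTR of a gene annotated as a thiol peptidase of the PPPDE family, outside the annotated coding sequence.

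In atcyp18-1 the other 5 of the 10 had smaller folds than these 5. AT2G07806 intron 7 had a mean ratio of 3.5 ± 0.195 in atcyp18-1 heat and 1.94 ± 0.312 in atcyp18-1 normal, with 3.56 ± 0.121 in WT heat and 1.89 ± 0.17 in WT normal (SD, n = 3 each). AT4G23910 intron 5 averaged 2.63 ± 0.536 and 1.12 ± 0.261 in heated and unheated atcyp18-1 seeds, and 2.1 ± 0.47 and 0.934 ± 0.173 in heated and unheated WT seeds (SD, n = 3 each). Both genes are annotated as encoding uncharacterized proteins. AT1G09730 intron 12, in a gene of the cysteine proteinase superfamily, AT1G73480 intron 3, in an alpha/beta-hydrolase gene, and AT3G09360 intron 3, in a gene for a protein like the transcription factor Brf1, had folds of 3.38, 3.5 and 3.84 in atcyp18-1 and 3.56, 2.61 and 4.81 in WT. Their heat libraries held 22 to 126 intron reads.

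**Figure D2:**
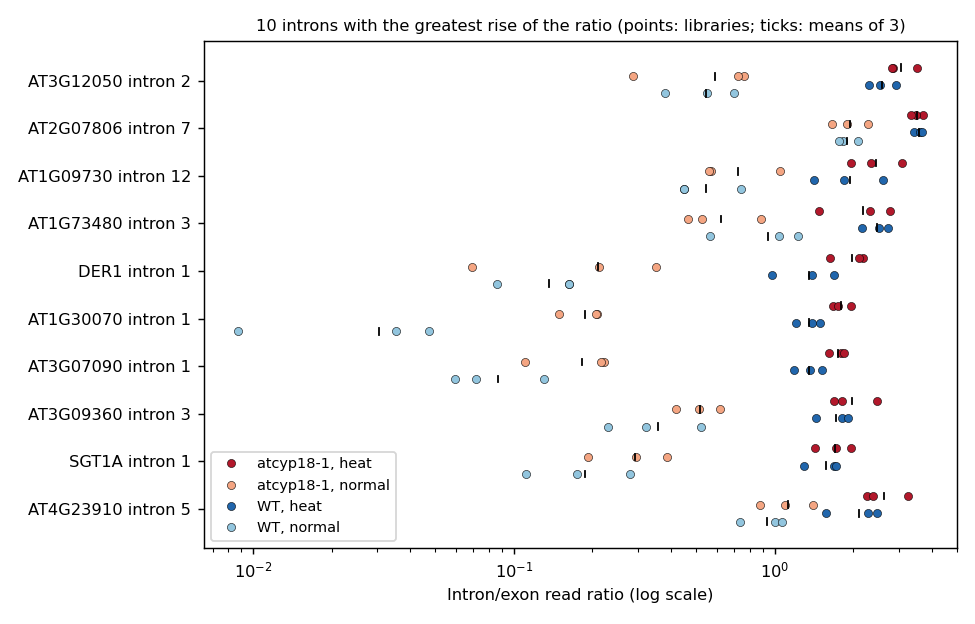
Intron/exon read ratio, on a log axis, of the 10 introns with the greatest rise in heat, with 1 point per library and ticks for the means of 3 libraries in atcyp18-1 heat, atcyp18-1 normal, WT heat and WT normal. Heat libraries lie to the right of normal libraries in every intron, and the WT normal libraries of AT1G30070 intron 1 lie lowest, at 0.00877 to 0.0474.

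The relative rise was greatest in MTHSC70-2, the gene of a mitochondrial HSP70 that drives protein import and folding. MTHSC70-2 intron 3 had ratios of 0.228, 0.293 and 0.237 in the heated atcyp18-1 libraries, against 0.00901, 0.0166 and 0.00385 in the unheated ones. In WT, MTHSC70-2 intron 3 had 0.329, 0.342 and 0.282 in heat, against 0.00418, 0.0051 and 0.0115 without heat. For MTHSC70-2 intron 1 the ratio was 0.847, 0.968 and 0.853 in atcyp18-1 heat and 0.00816, 0.0428 and 0.0142 in atcyp18-1 normal. WT MTHSC70-2 intron 1 had 0.974, 0.91 and 0.897 in heat and 0.0169, 0.0357 and 0.0228 at the normal temperature. Intron 1 thus had the greatest fold of all members in atcyp18-1, 40.9, and intron 3 the greatest in WT, 45.7, both picked for that after their values had been seen. All 5 introns of the gene were members. AT5G12110 intron 3 gave 1.08, 1.17 and 1.16 in heated atcyp18-1 seeds and 0.0645, 0.087 and 0.103 in unheated ones. Its WT ratios (AT5G12110) were 1.03, 0.771 and 1.14 in heat and 0.0519, 0.0303 and 0.0952 without heat. AT5G12110, annotated as elongation factor 1-beta 1, acts in translation, and this is the first intron printed above. Its length-adjusted retention was 69.3% in atcyp18-1 heat and 5.16% in atcyp18-1 normal, and 59.6% in WT heat and 3.61% in WT normal.

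Some hosts held many members. Of the 530 host genes, 321 held 1 member, 102 held 2 and 107 held 3 or more. The 59 hosts with at least 5 members held 397 of the 1087 introns, and 508 members stood next to another member in the same transcript. Introns of a gene share its transcripts and exons, so they are not independent of each other. Hsp89.1, a mitochondrial HSP90, held the most, 14 of its 20 introns, with folds of 3 to 21.9 in atcyp18-1 and 2.66 to 15.3 in WT. CR88, the HSP90 of the plastid, held 13 of 18, ILA, which encodes a large protein with HEAT repeats, 13 of 60, AT1G63770, a peptidase of the M1 family, 12 of 31, and AT1G02080, annotated as a transcription regulator, 11 of 49. Cpn60beta2, a subunit of the plastid chaperonin, held 11 of 14, as many as AT1G02080.

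In the hosts with the most members the retained introns lay along the whole gene or in a stretch of it. Hsp89.1 members ran from intron 2 to intron 20 and those of CR88 from intron 1 to intron 18. ILA members lay between introns 10 and 60 and those of AT1G02080 between introns 26 and 45, with none before. Hsp89.1 intron 10 had ratios of 0.625, 0.35 and 0.667 in the heated atcyp18-1 libraries, against 0.0627, 0.0547 and 0.09 in the unheated ones. In WT, Hsp89.1 intron 10 had 0.43, 0.314 and 0.451 in heat, against 0.0636, 0.0595 and 0.0563 without heat. For Cpn60beta2 intron 1 the ratio was 1.01, 0.816 and 1.01 in atcyp18-1 heat and 0.0624, 0.0371 and 0.0483 in atcyp18-1 normal. WT Cpn60beta2 intron 1 had 0.626, 0.432 and 0.722 in heat and 0.0352, 0.0473 and 0.0463 at the normal temperature. Both are the introns of their genes with the greatest absolute rise. The Cpn60beta2 intron lies in the 5′ UTR and was higher in the heated mutant libraries than in the heated WT libraries, without overlap. In the limma test between the genotypes in heat, given below, this intron was not called. ILA intron 40 gave 0.556, 0.545 and 0.536 in heated atcyp18-1 seeds and 0.145, 0.149 and 0.105 in unheated ones. Its WT ratios (ILA) were 0.272, 0.394 and 0.365 in heat and 0.0696, 0.0513 and 0.0688 without heat. ILA is required for plant development and responses to bacteria.

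All introns of some genes were members. UBP27, a ubiquitin-specific protease, had 8 of 8, CLPB3 8 of 8, CPN60A, a plastid chaperonin subunit, 7 of 7, and AT1G74320, annotated in the protein kinase superfamily, 7 of 7. HSP101, Fes1A, BOB1 and MTHSC70-2 each had 5 of 5. UBP27 introns had folds of 2.67 to 6.92 in atcyp18-1 and 3.66 to 6.98 in WT, and CPN60A introns 3.32 to 7.63 and 3.68 to 7.64. These genes were picked after their counts had been seen.

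**Figure D3:**
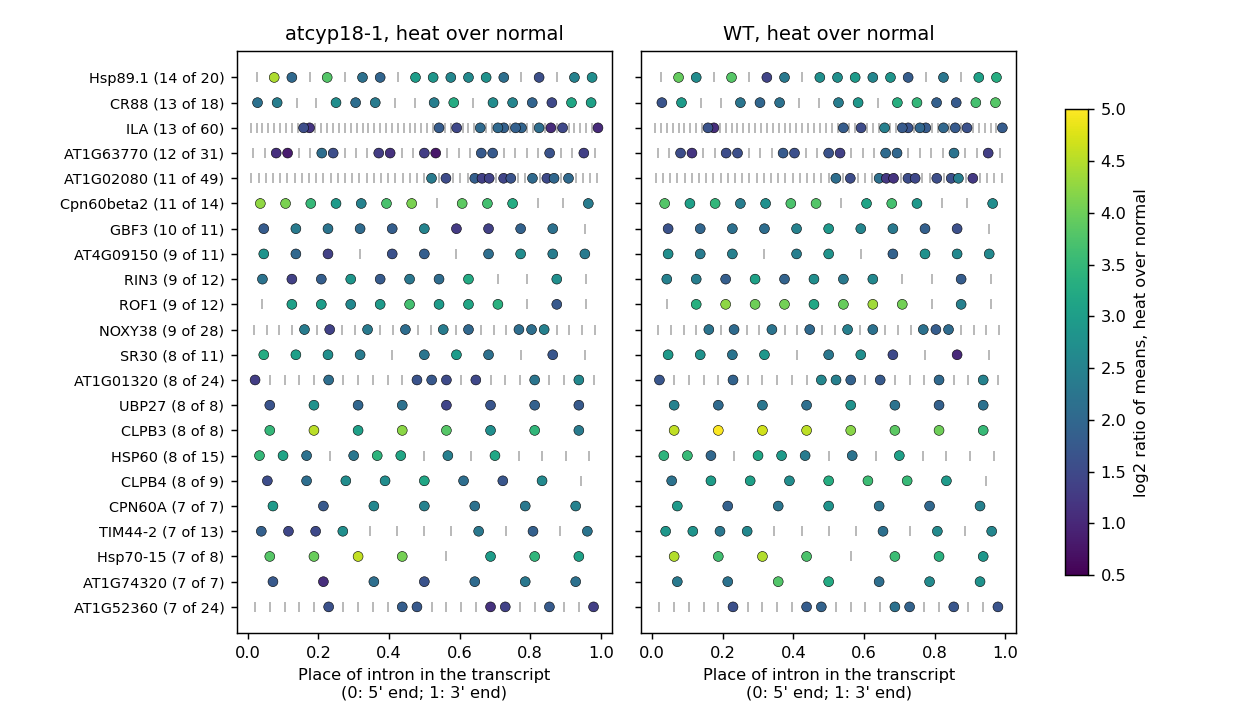
Place of each intron in the transcript, from the 5′ end (0) to the 3′ end (1), in the hosts with at least 7 members, in atcyp18-1 (left) and WT (right); points are members, coloured by the log2 fold of the ratio in heat over normal, and grey ticks are the other introns. The members of Hsp89.1 span 3 to 21.9 in atcyp18-1 and 2.66 to 15.3 in WT.

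Of 41 matched genes of heat shock factors and chaperones, 17 were hosts, where 3.06% of all 17296 tested genes were hosts. Hosts were more highly expressed than other genes, with medians given below. The 17 hosts carried 75 of the 1087 introns (6.90%). These members had a median log2 change of the ratio in heat of 2.71 in atcyp18-1 and 3.33 in WT, beside 1.76 and 1.94 over all members. Unmatched symbols of the list are not in these counts. HSP23.6 was 1 of them, although HSP23.6-MITO (AT4G25200) was a host, with a fold of 10.6 in atcyp18-1 and 41.4 in WT. HSP90.1, the heat-induced cytosolic HSP90, had all 3 introns among the members. HSP90.1 intron 1 had ratios of 1.15, 1.35 and 1.2 in the heated atcyp18-1 libraries, against 0.103, 0.112 and 0.134 in the unheated ones. In WT, HSP90.1 intron 1 had 1.28, 1.22 and 1.2 in heat, against 0.0576, 0.109 and 0.0444 without heat. With 1775 to 4084 reads per heat library this was the most deeply read member. Folds of the 3 introns were 10.4 to 11.8 in atcyp18-1 and 17.5 to 23.2 in WT. HSP81-2, a cytosolic HSP90 expressed also without heat, had both of its introns, with folds of 16.7 to 25.6 and 24.6 to 35.3. For HSP81-2 intron 1 the ratio was 0.483, 0.645 and 0.565 in atcyp18-1 heat and 0.0364, 0.0358 and 0.0293 in atcyp18-1 normal. WT HSP81-2 intron 1 had 0.565, 0.596 and 0.576 in heat and 0.0283, 0.0215 and 0.0209 at the normal temperature. HSP81-2 has near-identical neighbouring copies, so the split of its exon reads is uncertain.

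HSP101 and CLPB3, disaggregases that pull proteins out of aggregates in the cytosol and the plastid, followed the same pattern. HSP101 intron 3 had ratios of 0.313, 0.444 and 0.324 in the heated atcyp18-1 libraries, against 0.0606, 0.0621 and 0.0719 in the unheated ones. In WT, HSP101 intron 3 had 0.492, 0.483 and 0.428 in heat, against 0.0262, 0.0116 and 0.0381 without heat. In heat the genotypes overlapped, and without heat each mutant library was above each WT library. For CLPB3 intron 4 the ratio was 0.555, 0.614 and 0.577 in atcyp18-1 heat and 0.019, 0.0265 and 0.048 in atcyp18-1 normal. WT CLPB3 intron 4 had 0.564, 0.48 and 0.583 in heat and 0.0127, 0.0133 and 0.0432 at the normal temperature. Folds over the 8 CLPB3 introns were 5.09 to 23.1 in atcyp18-1 and 11.6 to 31.3 in WT. The mitochondrial paralogue CLPB4 had 8 of its 9 introns among the members, with folds of 2.94 to 8.91 and 4.61 to 12. HSA32 intron 1 gave 0.683, 0.754 and 0.696 in heated atcyp18-1 seeds and 0.0513, 0.069 and 0.0741 in unheated ones. Its WT ratios (HSA32) were 0.75, 0.568 and 0.694 in heat and 0.0784, 0.114 and 0.0769 without heat. HSA32 works with HSP101 in keeping acquired heat tolerance, and all 4 of its introns were members.

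Co-chaperones with members included BAG6, ROF1, its relative AT5G48570 (ROF2), Fes1A, BOB1, Hop2 and Hop3. ROF1 intron 7 had ratios of 0.731, 0.814 and 0.766 in the heated atcyp18-1 libraries, against 0.167, 0.0333 and 0.098 in the unheated ones. In WT, ROF1 intron 7 had 0.677, 0.586 and 0.77 in heat, against 0.0553, 0.0423 and 0.033 without heat. ROF1 is an FKBP-type isomerase that binds HSP90, and 9 of its 12 introns were members. For BAG6 intron 1 the ratio was 0.306, 0.33 and 0.33 in atcyp18-1 heat and 0.0202, 0.0494 and 0.126 in atcyp18-1 normal. WT BAG6 intron 1 had 0.373, 0.407 and 0.385 in heat and 0.0136, 0.0276 and 0.0544 at the normal temperature. BAG6 regulates cell death and stress responses, and its retained intron lies in the 5′ UTR. Fes1A, an HSP70 co-chaperone, had folds of 5.46 to 19.7 in atcyp18-1 and 5.99 to 17.5 in WT over 5 introns, and BOB1, a small protein that acts in development and heat tolerance, 2.8 to 11.6 and 4.37 to 20.3. AT5G48570 had 5 of 12, with folds of 2.33 to 3.34 and 2.22 to 6.6. Hop3, a co-chaperone that links HSP70 to HSP90, had 2 of 4, with 2.1 to 2.73 and 3.75 to 6.58.

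Genes with a single intron could be retained as well. AT-HSFA7B intron 1 had ratios of 0.816, 0.839 and 0.83 in the heated atcyp18-1 libraries, against 0.0377, 0.039 and 0.0177 in the unheated ones. In WT, AT-HSFA7B intron 1 had 0.854, 0.914 and 0.886 in heat, against 0.058, 0.0504 and 0.0473 without heat. AT-HSFA7B, a heat shock factor, has no other intron. For HSP21 intron 1 the ratio was 0.698, 0.967 and 0.703 in atcyp18-1 heat and 0.222, 0.25 and 0.133 in atcyp18-1 normal. WT HSP21 intron 1 had 0.895, 0.613 and 0.676 in heat and 0.0727, 0.0571 and 0.0625 at the normal temperature. HSP21 is a small heat shock protein of the plastid, and this is the second intron printed above. Its unheated mutant libraries held 1 intron read each, beside 4 to 7.5 mean exon reads, and its unheated WT libraries 1 to 2, beside 16 to 27.5, so its unheated ratios are little constrained. HSC70-1, a constitutive cytosolic HSP70, kept a low ratio in every library, at 0.00919, 0.0113 and 0.0127 in atcyp18-1 heat and 0.0037, 0.00344 and 0.00296 in atcyp18-1 normal. Its WT ratios were 0.0116, 0.0115 and 0.0124 in heat and 0.00214, 0.0027 and 0.00238 without heat.

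SR proteins bind exons and help choose splice sites, and their own transcripts are known to be spliced in several ways. Of the 20 genes of the list, 4 were hosts, with 14 members and a median log2 change of 2.29 in atcyp18-1 and 2.35 in WT. SR30 had 8 of 11 introns, SR45a 4 of 6, and SC35 and SCL33 1 each. SR30 intron 10 had ratios of 2.15, 1.82 and 1.62 in the heated atcyp18-1 libraries, against 0.51, 0.671 and 0.54 in the unheated ones. In WT, SR30 intron 10 had 1.39, 1.46 and 1.72 in heat, against 0.885, 0.641 and 0.721 without heat. Intron 10 is the long intron of SR30 known for alternative splicing. For SR45a intron 1 the ratio was 1.17, 1.58 and 1.37 in atcyp18-1 heat and 0.375, 0.36 and 0.243 in atcyp18-1 normal. WT SR45a intron 1 had 1.26, 1.13 and 1.37 in heat and 0.264, 0.104 and 0.126 at the normal temperature. Both SR genes separated heat from normal libraries in each genotype. SCL33 intron 6 gave 0.0857, 0.0904 and 0.08 in heated atcyp18-1 seeds and 0.0061, 0.0311 and 0.0312 in unheated ones. Its WT ratios (SCL33) were 0.0824, 0.0686 and 0.123 in heat and 0.0368, 0.0224 and 0.0118 without heat. The SCL33 values without heat rested on 1 to 6 reads. SC35 intron 2 averaged 0.211 ± 0.0431 in atcyp18-1 heat and 0.0823 ± 0.0365 in atcyp18-1 normal, and 0.205 ± 0.0147 in WT heat and 0.0711 ± 0.0207 in WT normal (SD, n = 3 each).

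Of 23 spliceosome genes and other splicing regulators that could be matched, 1 was a host. The list held 40 symbols, and the unmatched ones, PRP8A and BRR2A among them, were not looked for under other names. More of the listed genes may therefore be hosts. U1-70K intron 6 had ratios of 1.8, 1.42 and 1.84 in the heated atcyp18-1 libraries, against 1.09, 1.07 and 0.814 in the unheated ones. In WT, U1-70K intron 6 had 1.92, 1.64 and 1.75 in heat, against 1.19, 1.11 and 0.827 without heat. U1-70K encodes a protein of the U1 particle, which binds the 5′ splice site, and its long intron 6 had the smallest fold of all members, 1.71 in atcyp18-1 and 1.7 in WT. It therefore also marks the edge of the rule, since the authors' deposited table lists no ratio under 1.70. By p-value the edge was AT2G34357 intron 6, with p = 0.0474 in atcyp18-1 and 0.0498 in WT in the authors' deposited table. Outside the rule stood AME3 intron 5, the 1 intron of both heat tables that moved in opposite directions, with a fold of 0.457 in atcyp18-1 and 1.81 in WT. Its deposited ratio in atcyp18-1 was 2.19, because the deposited ratio sets the larger mean over the smaller. AME3 encodes a protein kinase, and its intron overlaps an exon of another gene.

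At the gene level in edgeR's quasi-likelihood test, with Benjamini-Hochberg adjustment over 17296 genes, hosts moved in both directions in heat. Of the 530, 213 were called higher and 169 lower in atcyp18-1 heat, where 22.9% of all tested genes were called higher and 23.4% lower. In WT heat 176 were called higher and 217 lower, with 25.0% and 25.1% over all genes. In both genotypes 172 hosts were higher and 159 lower, and these carried 453 and 279 of the members. The median log2 change of the ratio was 2.26 in atcyp18-1 and 2.44 in WT for members in the higher hosts, and 1.48 and 1.76 for those in the lower hosts. The rule fixed a higher ratio for all of them. Host genes were well expressed, with a median of 84.2 CPM over all libraries, against 13.6 CPM for all tested genes. With plain library sizes the median of all genes moved to −0.23 in atcyp18-1 and −0.21 in WT, and the calls became 164 higher and 260 lower in atcyp18-1 and 142 higher and 288 lower in WT. The share of higher calls among all genes fell to 22.9% in atcyp18-1, against 49.5% with TMM scaling, and to 27.6% in WT, against 49.9%.

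**Figure D4:**
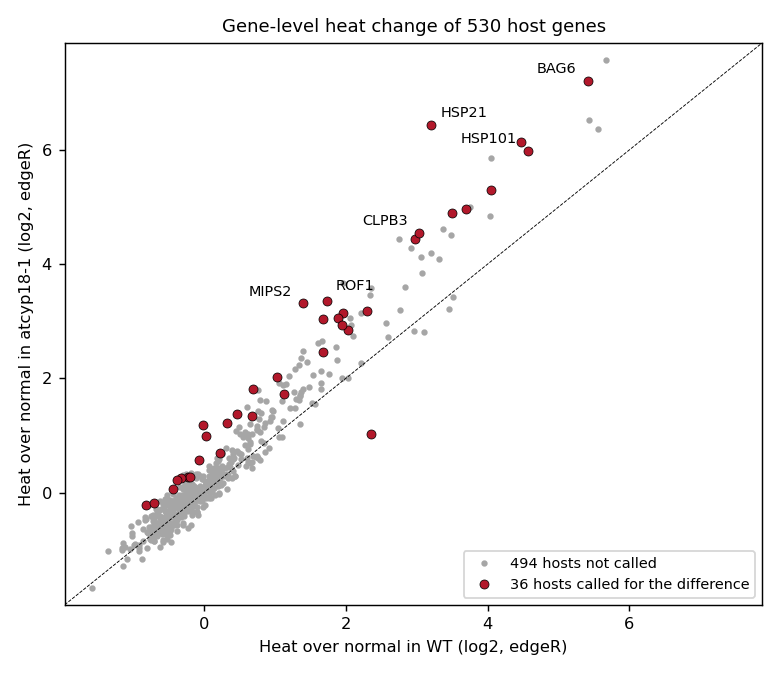
Gene-level log2 change in heat of the 530 host genes, in WT (horizontal) and in atcyp18-1 (vertical), by edgeR, with the dashed line marking equal changes and dark red points for the 36 hosts called for the interaction. Hosts lie on both sides of 0, with 172 called higher and 159 called lower in both genotypes.

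The genotypes were then compared, which the rule did not use. Over the members, the mean ratio was higher in atcyp18-1 than in WT for 800 introns in heat (73.6%) and for 869 without heat (79.9%). In limma on log2(ratio + 0.01), adjusted over the 1203 introns in both heat tables, the median difference in heat was 0.18, and 1 member was called higher and 0 lower in atcyp18-1, where 0.0831% of all tested introns were called higher. At an unadjusted p under 0.05 there were 139 higher and 10 lower. The share of all 1203 introns at that threshold was not counted. Their median difference was 0.15, so the shift is not particular to the members. edgeR on the recovered whole intron reads, with exon reads as offset, called 111 members higher and 18 lower in heat, where 11.1% of all introns were called in either direction. The intron called by limma was among the 111. The authors' deposited table for this comparison held 310 introns, 38 of them members, with 38 of these 38 higher in atcyp18-1, against 74.8% of the 310.

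The member called in heat was AT1G54870 intron 3. AT1G54870 intron 3 had ratios of 0.0224, 0.0232 and 0.0283 in the heated atcyp18-1 libraries, against 0.00658, 0.00654 and 0.00743 in the unheated ones. In WT, AT1G54870 intron 3 had 0.00996, 0.00802 and 0.0137 in heat, against 0.00417, 0.0016 and 0.00461 without heat. AT1G54870 is annotated as an NAD(P)-binding Rossmann-fold protein. The 3 heated mutant libraries lay above the 3 heated WT libraries, and the difference was 0.76 ± 0.11 (SE, log2; limma adjusted p = 0.00493). The call was lost with a pseudocount of 0.001, with median centring of the libraries, without WT heat replicate 2 and without atcyp18-1 heat replicate 3, with an adjusted p of at most 0.0649 on leaving out 1 library and of 0.000488 to 0.229 over the 18 alternatives. Its length-adjusted retention was low, 7.39% in atcyp18-1 heat and 3.17% in WT heat.

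Without heat 48 members were called higher and 2 lower in atcyp18-1 by limma, where 4.24% of all tested introns were called higher, 0.166% lower and 4.41% in either direction. The share of members, 4.42% higher, was thus near that of all introns tested, most of which are members. With each library centred on its median ratio, 10 members were called higher and 10 lower. The excess of higher calls was thus not seen once the shift shared by most introns was taken out, and the source of that shift was not tested. The median difference was 0.32, and 872 members were above 0. Over all 1203 introns, most of them members, the median was 0.27. edgeR on intron reads called 39 higher and 1 lower, where 3.74% of all introns were called, and 22 and 1 were called by both methods. The 48 introns lay in 40 hosts, with log2 differences of 0.74 to 2.42 and a median of 1.17. For 47 the 3 mutant libraries lay above the 3 WT libraries, and 36 also had a higher mean in the mutant in heat. The median read number in these introns was 10 per atcyp18-1 normal library and 5 per WT normal library, and 19 of the 48 had at least 5 reads in all 6 normal libraries. At the gene level 20 of the 40 hosts were called lower in unheated atcyp18-1 seeds, 1 was called higher and 19 neither way, where 18.3% of the 530 hosts and 12.2% of all tested genes were called lower. The ratio divides by exon reads of the same gene, so ratio and gene level are not independent measures. What fewer exon reads add to these intron calls was not tested.

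The 5 called higher with the smallest p were these. AT5G06750 intron 2 had ratios of 0.2, 0.333 and 0.267 in atcyp18-1 normal, against 0.0408, 0.0645 and 0.0571 in WT normal, a difference of 2.10 ± 0.27 (SE, log2; limma adjusted p = 0.000465). AT5G06750 encodes a phosphatase of the PP2C family, and the values rested on 3 to 5 reads per mutant library and 1 read per WT library. AT1G30070 intron 1, described above, differed by 2.42 ± 0.33 (SE, log2; limma adjusted p = 0.000551). ATERDJ3A intron 6 had 0.235, 0.353 and 0.167 in atcyp18-1 normal, on 1 to 3 reads, against 0.069, 0.0513 and 0.0769 in WT normal, on 1 read each, a difference of 1.74 ± 0.27 (SE, log2; limma adjusted p = 0.00246). ATERDJ3A encodes a DnaJ co-chaperone of the endoplasmic reticulum. edgeR on intron reads did not call AT5G06750 and ATERDJ3A.

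The other two rested on more reads. TPR10 intron 3 had 0.248, 0.16 and 0.233 in atcyp18-1 normal, against 0.0645, 0.0414 and 0.0663 in WT normal, and differed by 1.73 ± 0.29 (SE, log2; limma adjusted p = 0.00382). TPR10 is annotated as an ankyrin repeat protein. Hop2 intron 3 had 0.161, 0.103 and 0.136, against 0.0415, 0.0288 and 0.049, in the same groups, and differed by 1.52 ± 0.27 (SE, log2; limma adjusted p = 0.00495). Hop2 is the paralogue of Hop3 described above. The calls of TPR10, Hop2 and AT1G30070 held under all 19 alternatives run, with adjusted p of up to 0.0235, 0.0328 and 0.00633. The count of 48 was 29 to 31 without atcyp18-1 normal replicate 1 or without any of the atcyp18-1 heat libraries. HSP21 intron 1 differed by 1.48 ± 0.27 (SE, log2; limma adjusted p = 0.00665), on the few reads given above. Its intron reads were no higher in the unheated mutant libraries than in the unheated WT libraries, and only its exon reads were lower. The gene itself was called lower there, at -1.84 ± 0.64 (SE, log2, edgeR adjusted p = 0.0432). The call therefore shows no higher intron signal in the mutant. Of the 48 introns, 7 lay in 6 hosts of the heat shock list; all hosts of that list together carried 6.90% of the members.

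In the other direction, AT1G73480 intron 2 was lower in unheated mutant seeds, with 0.0667, 0.0952 and 0.154, against 0.333, 0.235 and 0.211 in WT normal, a difference of -1.27 ± 0.28 (SE, log2; limma adjusted p = 0.0181). BXL1 intron 2 had 0.0688, 0.0912 and 0.0489 in atcyp18-1 normal, against 0.14, 0.143 and 0.13 in WT normal, a difference of -0.92 ± 0.26 (SE, log2; limma adjusted p = 0.0488). BXL1 is a beta-xylosidase of the cell wall. Its call was lost under 13 of 19 alternatives, with adjusted p of 0.0101 to 0.131 and 11 of the losses on leaving out 1 library, and that of AT1G73480 with edgeR on intron reads and without atcyp18-1 normal replicate 1 (adjusted p = 0.0723). The authors' deposited table for unheated seeds held 282 introns, 20 of them members, with 19 higher and 1 lower in atcyp18-1, where 97.9% of the 282 were higher.

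**Figure D5:**
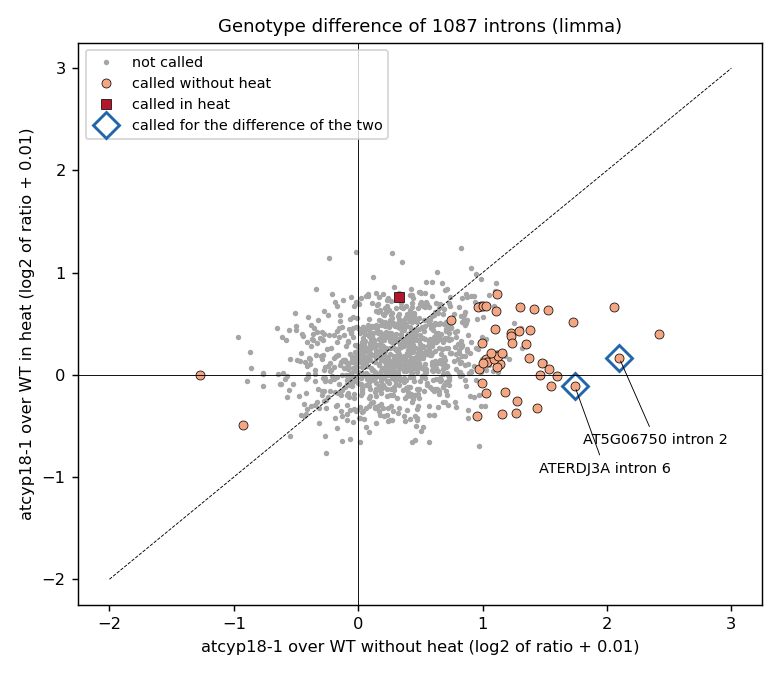
Difference of the log2(ratio + 0.01) between atcyp18-1 and WT for each of the 1087 introns, without heat (horizontal) and in heat (vertical), with the introns called by limma marked and a dashed line for equal differences. Most introns lie to the right of 0, 872 of them, and 48 are called higher without heat.

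Whether the heat change differed between genotypes was tested as an interaction. All 1203 introns fitted were listed in both heat tables, so introns listed for 1 genotype alone were left out beforehand. The number of calls therefore cannot say how often the heat change differs between genotypes. The median interaction was −0.12 over the members and also over all 1203 introns. Among the members limma called 0 higher and 2 lower, where 0.333% of all tested introns were called lower. At an unadjusted p under 0.05 there were 22 higher and 83 lower, and the share of all introns at that threshold was not counted. With intron reads, edgeR called 0 higher and 3 lower, where 0.499% of all introns were called, with no intron in common with limma. The 2 were AT5G06750 intron 2, at -1.93 ± 0.38 (SE, log2; limma adjusted p = 0.0446), and ATERDJ3A intron 6, at -1.85 ± 0.38 (SE, log2; limma adjusted p = 0.0468). In heat AT5G06750 had 0.563, 0.533 and 0.626 in atcyp18-1 and 0.409, 0.481 and 0.672 in WT, and ATERDJ3A 0.574, 0.747 and 0.553 and 0.653, 0.717 and 0.641, so the genotypes overlapped in heat and stood apart without it. These calls were lost under 13 of 18 and 15 of 19 alternatives, with adjusted p of 0.0254 to 0.323 and 0.0254 to 0.418. Leaving out any heat library ended both.

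The host genes were compared in the same way at the gene level. In heat edgeR called 161 hosts higher and 24 lower in atcyp18-1, or 30.4% and 4.53%, where 8.17% of all tested genes were called higher and 8.49% lower. The median log2 difference was 0.12 over the hosts and −0.02 over all genes. With plain library sizes the median of all genes moved to −0.18 and the hosts' calls to 93 higher and 98 lower, and the share of higher calls over all genes was 14.1%, against 49.0% with TMM. Without WT heat replicate 2 the count of higher hosts was 102, and without atcyp18-1 heat replicate 3 it was 93. Without heat 70 hosts were called higher and 97 lower, where 11.2% and 12.2% of all genes were called. The numbers were 24 and 191 with plain library sizes, when the share of higher calls over all genes was 18.4%, against 47.9%. The count of 70 was 37 without WT normal replicate 1, 46 without atcyp18-1 normal replicate 1 and 39 without atcyp18-1 normal replicate 3.

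The interaction was called higher for 35 hosts and lower for 1, where 0.630% and 0.451% of all genes were called. The 1 called lower, picked for that, was AT2G41835, a zinc finger gene, with -1.33 ± 0.27 (SE, log2; edgeR adjusted p = 0.0279). HSP21 led in size among the heat shock hosts, at 3.24 ± 0.67 (SE, log2; edgeR adjusted p = 0.0279), with 75 ± 28.4 CPM in heated and 0.865 ± 0.329 CPM in unheated atcyp18-1 seeds, and 28.2 ± 11.7 CPM in heated and 3.09 ± 0.773 CPM in unheated WT seeds (SD, n = 3 each). BAG6 had 1.80 ± 0.28 (SE, log2; edgeR adjusted p = 0.00522) and ROF1 1.62 ± 0.23 (SE, log2; edgeR adjusted p = 0.00256). HSP23.6-MITO, outside the matched list, had 1.67 ± 0.35 (SE, log2, edgeR adjusted p = 0.0284). How that call holds under the alternatives is not given here. ROF1 was read at 490.3 ± 127 CPM in heated and 48.2 ± 0.818 CPM in unheated atcyp18-1 seeds, and 301 ± 77 CPM in heated and 90.7 ± 11.2 CPM in unheated WT seeds (SD, n = 3 each). ROF1 was lower in the unheated mutant, at -0.91 ± 0.17 (SE, log2; edgeR adjusted p = 0.000681), and higher in the heated mutant, at 0.71 ± 0.16 (SE, log2; edgeR adjusted p = 0.00412). BAG6 was also lower without heat, at -0.70 ± 0.23 (SE, log2; edgeR adjusted p = 0.0333), and higher in heat, at 1.10 ± 0.17 (SE, log2; edgeR adjusted p = 0.000135).

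CLPB3 had an interaction of 1.52 ± 0.26 (SE, log2; edgeR adjusted p = 0.00896), HSP101 1.42 ± 0.33 (SE, log2; edgeR adjusted p = 0.0434), HSP90.1 1.26 ± 0.26 (SE, log2; edgeR adjusted p = 0.0289) and Hop2 0.90 ± 0.20 (SE, log2; edgeR adjusted p = 0.038). AT1G30070, host of the intron called higher without heat, had 1.46 ± 0.26 (SE, log2; edgeR adjusted p = 0.0133), with 461 ± 119 CPM in heated and 21.2 ± 1.39 CPM in unheated atcyp18-1 seeds, and 286 ± 82.5 CPM in heated and 36.3 ± 6.12 CPM in unheated WT seeds (SD, n = 3 each). The calls of BAG6 and ROF1 held under all 17 alternatives, as did that of FKBP53. When each library was left out in turn, the call of HSP21 was lost without 7 libraries, HSP101 without 9, HSP90.1 without 6, Hop2 without 8, AT1G30070 without 3 and CLPB3 without 1 (atcyp18-1 heat replicate 1), with adjusted p of up to 0.102, 0.129, 0.102, 0.113, 0.0557 and 0.0504. Leaving out atcyp18-1 heat replicate 1 ended each of these 6 calls. They were all lost as well with no filter on low counts, and DESeq2 did not call HSP101. The number of hosts called higher for the interaction depended on single libraries, with 4 to 78 when each library was left out in turn. It was 4 without atcyp18-1 heat replicate 1, 7 without atcyp18-1 heat replicate 3, 9 without WT normal replicate 1, and 11 to 21 without WT heat replicate 2, WT normal replicate 2 or atcyp18-1 normal replicate 1, 2 or 3. It was 53 without WT heat replicate 3 and 78 without atcyp18-1 heat replicate 2.

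Over the lists as wholes, hosts or not, the heat shock genes showed 19 called higher and 2 lower in atcyp18-1 heat against WT heat, 1 higher and 10 lower without heat, and 10 higher and 0 lower for the interaction, of 40 tested. Over all genes 8.17% were called higher and 8.49% lower in heat, 11.2% and 12.2% without heat, and 0.630% and 0.451% for the interaction. DESeq2 called 14 higher and 2 lower of the list in heat, 0 and 8 without heat and 12 and 0 for the interaction. For the interaction 1 was lower at an unadjusted p under 0.05 in edgeR. Their median log2 was 0.41 in heat, −0.35 without heat and 0.65 for the interaction, beside −0.02, 0.00 and −0.02 over all genes. In heat against normal 29 were higher and 3 lower in atcyp18-1 and 30 and 4 in WT (DESeq2 29 and 2, and 30 and 1), where 22.9% and 23.4% of all genes were called in atcyp18-1 and 25.0% and 25.1% in WT. Of the 20 SR genes 9 were higher in atcyp18-1 in heat and 8 without heat, with 0 lower in either and 0 called for the interaction by edgeR or DESeq2. At an unadjusted p under 0.05 in edgeR 0 SR genes were lower in either condition, and 2 were higher and 2 lower for the interaction. In heat against normal edgeR called 10 SR genes higher in atcyp18-1 and 11 in WT, with 0 lower, also at an unadjusted p under 0.05 and by DESeq2. Of the 23 splicing regulators 3 were higher and 4 lower in atcyp18-1 in heat (DESeq2 2 and 3), 4 and 4 without heat (DESeq2 4 and 3), and 0 were called for the interaction by edgeR or DESeq2, with 3 higher and 2 lower at an unadjusted p under 0.05 in edgeR. In heat 9 were higher and 5 lower in atcyp18-1, and 9 and 6 in WT. The same 3 medians were 0.23, 0.24 and −0.05 for the SR genes and 0.12, −0.04 and 0.10 for the splicing regulators.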

How the data were processed

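Polyadenylated RNA of 12 libraries in 4 groups of 3 was measured; the library titles gave the groups. The submitters' processing notes name HTSeq and DESeq without versions; which aligner, splicing caller and build were used is not given in the sources used here. For each listed intron the authors deposited, per the file headers, a normalized signal, which was the intron's read number times 1 factor per library (1 in 7 libraries), and a ratio of intron reads to mean reads on the 2 exons beside it. The deposited tables also held the ratio between groups and its p-value, not adjusted. The lowest such ratio was 1.70 and the highest p-value 0.0500, so introns with small changes are not listed. Genes were tested on the deposited read counts, which are listed by transcript. Of 57939 transcripts, 1 was kept for each of 23337 genes, the one with the lowest isoform number, and the others were not used. The counts kept were used as deposited, with totals of 7468922 to 10506481 reads per library. None is 0, and they appear to be the count plus 1. The protocols describe no strand-specific step.

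The members and the gene lists were chosen with earlier results of these data known. Intron ratios were tested with limma 3.58.1 on log2(ratio + 0.01), in 1 model of 4 group means over 1203 introns, and genes with edgeR 4.0.16 under R 4.3.3 (quasi-likelihood test after filterByExpr and TMM scaling) over 17296 genes. An adjusted p under 0.05 (Benjamini-Hochberg) was a call. The scripts were tested on simulated data. Dividing the signal by its factor gave whole intron reads for 100% of values within 0.01 reads, and edgeR on these reads, with exon reads as offset, was an added alternative. Over all 1203 introns it called 133 in heat, 45 without heat and 6 for the interaction. DESeq2 1.42.0 on the gene counts was another.

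Named introns were the 10 with the greatest mean rise among hosts of at least 5 CPM in every group, members in the SR, spliceosome and heat shock lists, up to 5 called introns per direction and comparison, the 5 hosts with the most members (6 with a tie), and the introns next to the thresholds. Others were chosen after their values were seen. Symbols of the lists matched for 20 of 20, 23 of 40 and 41 of 45 genes. Symbols that did not match a single gene were left out and not looked for under other names, so counts over the lists cover the matched genes only. Positions, reading frames and sequences came from the TAIR10.1 annotation of RefSeq, whose introns matched all listed coordinates. Same-numbered libraries correlated at a median of 0.00255 in their deviations of intron ratios and 0.0204 of gene counts, so numbers were not taken to pair libraries. Tables of other splicing events were not used here.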

Additional observations from a re-analysis of the deposited data

Results flagged for a closer look

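The heat change differed between atcyp18-1 and WT, by the interaction test, for 2 introns and for 36 of the 530 host genes. Given here are 15 called hosts of introns chosen by the naming rule or described above, and AT2G41835, the only 1 called lower. The value of HSP23.6-MITO is given above. For the ratio of AT5G06750 intron 2 the heat change in atcyp18-1 minus that in WT was -1.93 (log2) and for ATERDJ3A intron 6 -1.85, where the unheated values rested on 1 to 5 reads per library. At the gene level the difference of heat changes was 3.24 for HSP21, 1.80 for BAG6, 1.62 for ROF1, 1.52 for CLPB3, 1.46 for AT1G30070, 1.42 for HSP101, 1.26 for HSP90.1, 0.99 for MTHSC70-2, 0.96 for FKBP53, 0.90 for Hop2, 0.89 for Cpn60beta2, 0.87 for AT3G07090, 0.77 for AT3G09440, an HSP70 family gene, 0.65 for TPR10, 0.60 for HSP81-2 and -1.33 for AT2G41835 (log2, edgeR). When each library was left out in turn, the calls not yet described were lost without 1 library for MTHSC70-2, 5 for AT3G09440 and HSP81-2, 6 for AT2G41835, 7 for Cpn60beta2, 8 for TPR10 and 9 for AT3G07090, with adjusted p of up to 0.0504, 0.0858, 0.102, 0.107, 0.112 and 0.131. Leaving out atcyp18-1 heat replicate 1 ended each of these 7 calls. They were all lost as well with no filter on low counts, and DESeq2 did not call AT3G07090. HSP21 had 0.865 ± 0.329 CPM in atcyp18-1 normal and 3.09 ± 0.773 CPM in WT normal (SD, n = 3 each). The summed embryo storage genes, 4430 to 5284 CPM in atcyp18-1 normal and 1305 to 2199 CPM in WT normal, differed between the same groups, and their part in these results was not tested.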

How the results depend on the processing

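The 1087 introns stayed 1087 when any library was left out. A deposited p under 0.01 in both tables left 292 and a deposited ratio of at least 3 left 576, by construction. Chosen after seeing the data, besides edgeR on intron reads, were introns overlapping no exon of another gene (1079), those with at least 10 reads in each heat library (1053) and those whose deposited scaled signal was also higher in heat in both genotypes (1075). No sign of a named difference turned under any alternative run. For the other moved counts of calls the cause was not tested.

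Intron calls in heat (1 higher, 0 lower) were 0 higher with a pseudocount of 0.001, without the lowest 25% of introns by signal and with median centring, 75 higher and 5 lower with a pseudocount of 0.1, and 111 and 18 with edgeR on intron reads. Without heat (48 and 2) they were 17 and 1 with a pseudocount of 0.1, 10 and 10 with median centring, 1 lower without that lowest 25% and 1 lower with edgeR. For the interaction (0 and 2) a pseudocount of 0.1 gave 1 and 0, a pseudocount of 0.001 and centring 0 lower, and leaving out that 25% 1 lower. The replicate block, fitted although the shared numbers are only labels, gave 1 intron lower without heat and 1 for the interaction, and 62 higher and 2 lower hosts for the interaction. Plain library sizes gave 93 and 98 hosts in heat, 24 and 191 without heat, and 260 lower for heat in atcyp18-1. With no filter on low counts, 4 and 0 hosts were called for the interaction.

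Leaving out each library gave, for introns, 0 to 4 higher and 0 to 1 lower in heat, 29 to 71 and 0 to 4 without heat, and 0 to 3 and 0 to 9 for the interaction. For hosts it gave 93 to 184 and 16 to 28 in heat, 37 to 77 and 66 to 107 without heat, and 4 to 78 and 0 to 2 for the interaction. Heat calls of hosts were 194 to 215 and 155 to 171 in atcyp18-1, and 163 to 183 and 194 to 219 in WT. The low read numbers without heat, with a median of 8 to 12 reads per intron, limit the genotype comparison.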

Other observations

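Among the 48 introns called higher in unheated atcyp18-1 seeds, some lay in genes that neighbour each other on the chromosome, which was seen after the calls were made and not tested. Host genes without such a call can adjoin as well, by their identifiers, as Fes1A (AT3G09350) and AT3G09360 do. The share of neighbours over all hosts was not counted, so nothing particular to the called introns is shown. AT3G08960, on the minus strand, held 3 of them, and the next gene, ATERDJ3A (AT3G08970), and the one after it, AT3G08980, both on the plus strand, held 1 each. RABA2b (AT1G07410), which encodes a small GTPase of membrane traffic, and SMO2-1 (AT1G07420), a sterol methyl oxidase, lie side by side on the plus strand with 1 each. HSP101 (AT1G74310), on the minus strand, held 1, and AT1G74320, next to it on the plus strand, held 2.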
